A study of Mus musculus with 20 samples.

Results

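The make-up of electroporated mouse retina was compared between postnatal day 5 (P5) and postnatal day 2 (P2), using the cell type that the authors gave to each deposited cell. The members are the cells themselves, counted per library and type: all 79009 cells of the 20 libraries entered, 45253 at P2 and 33756 at P5, in 9 types. The tissue was retinal explant from wild-type CD1 mice, an outbred albino stock. It was electroporated with a GFP control construct, with MEIS1, with MEIS2, or with an equal mixture of both, and each age holds 4 control libraries and 2 libraries of each of the 3 MEIS arms. The pCAGIG plasmid drives its insert and GFP from a ubiquitous promoter. Library names and the authors' cell table give MEIS constructs, while the series text names NR2F1 and NR2F2, and the treatment label of the single-construct libraries names MEIS1 at P2 and MEIS2 at P5. Library names were followed. GFP-positive cells were sorted, and each deposited cell held at least 1 GFP UMI (a UMI is 1 counted RNA molecule). The median was 2 to 104 GFP UMIs per cell in the P2 libraries and 2 to 25 in the P5 libraries. The level that free GFP RNA gives in cells without the construct was not measured here. Since both ages carry the same arms in the same numbers, arm was a block in every comparison of age. The sample labels give P2 and P5 as an age, while the series text gives 2 or 5 days of treatment, so that age and time in culture cannot be told apart. The labels do not say that libraries came from separate animals, and p-values measure the spread between these libraries, which may be technical.

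The retina makes its neurons from multipotent progenitors in an overlapping order that is shared among vertebrates. Horizontal cells, cones and most amacrine cells are born early, rods over a long period around birth, and bipolar cells and Müller glia last. A progenitor that leaves the cell cycle passes through a short neurogenic state marked by proneural transcription factors before it takes on a neuronal fate, and progenitors that remain at the end of neurogenesis turn on glial genes. In the mouse these last steps fall in the first postnatal week.

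Libraries held from 1625 to 17739 cells and from 2376875 to 141540352 UMIs, with a median of 992 to 14199 UMIs per cell. P2 MEIS2 library 2 was the shallowest, with a median of 992 UMIs. Each P5 replicate 1 library (control, MEIS1, MEIS2 and combination) had a median mitochondrial percent of 6.93 to 10.6, while the other P5 libraries lay between 3.36 and 5.11. P5 combination library 1 stood apart in its bipolar cells, and P5 control library 1 in its amacrine cells, so results are also given without these libraries where they matter. Barcodes occurring in more than 1 library were found in 1492 cells (1.89%), at most 0.876% of the smaller library of any of 190 pairs. The name at the start of the cell barcodes equals the library name in 10 of 20 libraries. In the others, the 8 controls and both P2 combination libraries, most differ only in number, but barcodes of P2 control library 1 begin with a combination name and those of P2 combination library 2 with a control name. Replicate numbers, replicate 1 included, follow the library names. Using the barcode start for the arm changed none of the calls on the 9 shares or the 10 ratios. Doublets were kept, because calls by Scrublet were uneven. It called 3220 cells (4.08%), of which 2070 were in P2 control library 1 (11.7% of its cells), and under 0.5% of cells in 7 libraries, with 2 of 6292 in P5 control library 1. It called 6.28% of P2 cells, or 2.80% without P2 control library 1, and 1.12% of P5 cells, and these rates are not read as a difference between ages.

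Bipolar cells, amacrine cells, progenitors, rods and cells labelled Müller glia differed in share between the ages. The rod call was lost among cells with at least 3 GFP UMIs. Of the 9 shares, 5 (55.6%) passed a Benjamini-Hochberg adjusted p of 0.05 in edgeR's quasi-likelihood test on cell numbers, 3 higher at P5 (33.3%) and 2 lower (22.2%). The exact permutation test, which reassigned ages within arms over all 15120 arrangements, also called 5 of 9 (55.6%). Shares in a library sum to a whole, so a large gain of 1 type lowers the others, and ratios of types are therefore given further on.

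Bipolar cells, the interneurons that relay photoreceptor signals to the inner retina, showed the widest gap. They were 0.171% of cells in the lowest P2 library, 0.261% at the P2 median and 0.661% in the highest. At P5 the lowest library had 1.18%, the median was 14.9% and the highest reached 22.9%. All 10 P5 libraries lay above all 10 P2 libraries. In numbers, 138 cells carried the label at P2 and 4392 at P5. Scrublet called 23 of the 138 doublets (16.7%) and 104 of the 4392 (2.37%), and the log2 difference was 5.36 with all called doublets left out. The share rose 39.8-fold (log2 5.32, SE 0.48, edgeR adjusted p = 1.41e-08), and the mean was 0.355 ± 0.178% at P2 and 14.1 ± 7.07% at P5 (SD, n = 10 libraries each).

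The lowest P5 value belonged to combination library 1, with 53 bipolar cells among 4501 (1.18%, 95% Wilson interval 0.901 to 1.54%). That interval lies above the P2 median, and overlaps the interval of the highest P2 library (0.437 to 0.999%). The second-lowest P5 share was 7.58% in control library 1, followed by 9.52% in MEIS1 library 1 and 9.87% in combination library 2. Without combination library 1 the log2 difference was 5.58.

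Marker genes set a limit on what the label means at P2. In the 4392 P5 cells labelled bipolar, Grm6, the glutamate receptor of ON bipolar cells (mm10 chr11:50850685-50866208), reached 530 CPM (UMIs of the gene scaled to a common UMI total, the usual counts-per-1e6 unit), Vsx1, a bipolar transcription factor, 148 CPM, and Trpm1, the cation channel of the same signalling cascade, 155 CPM. In the 138 P2 cells with the label all 3 genes had 0 of 1141779 UMIs, where 3 counts over the group would be 2.63 CPM. These levels were therefore at least 202-fold higher at P5 for Grm6, at least 56.4-fold for Vsx1 and at least 59.0-fold for Trpm1. Of the 9 bipolar markers, 9 were highest in this type at P5 and 1 at P2, namely Lhx4, a LIM-homeodomain factor, at 102 CPM. The P2 cells carried Otx2, a homeodomain factor of photoreceptor and bipolar precursors, at 1099 CPM and Atoh7, a proneural factor of early fates, at 52.5 CPM. The corresponding P5 values were 928 and 0.95 CPM. The P2 label thus goes with few of the markers that define the type at P5.

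At the library level the picture was the same in 9 of 10 P5 libraries. P5 bipolar-labelled cells held between 757 and 7011 Grm6 UMIs in those 9 libraries. In combination library 1, 53 cells held 0 UMIs of Grm6, Vsx1 and Trpm1 among 734108, with 182 of Lhx4. Its bipolar-labelled cells are in that respect like those of P2.

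**Figure D1:**
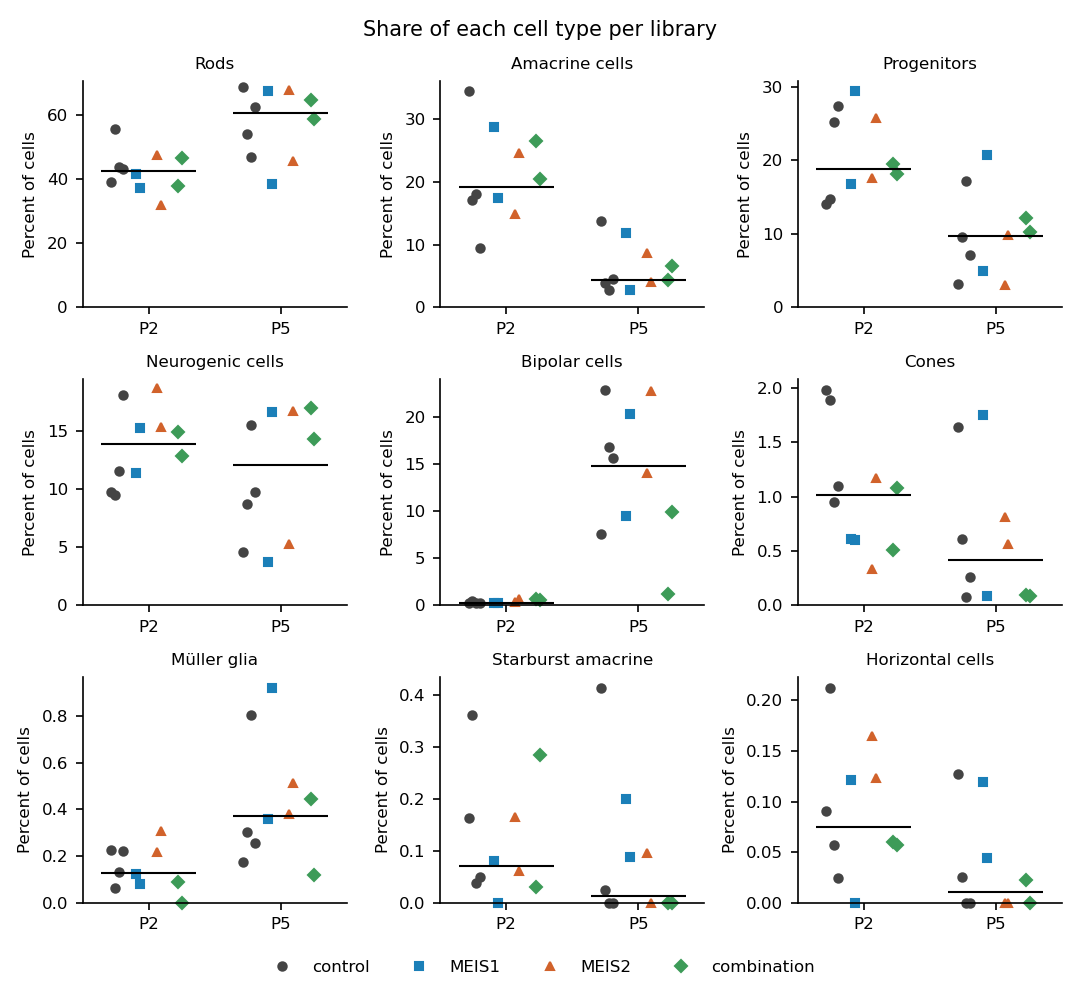
Percent of a library's cells in each of the 9 types, by age, 1 point per library; shape and colour give the arm and the black line is the median of 10 libraries. All P5 libraries lie above all P2 libraries for bipolar cells (1.18 to 22.9% against 0.171 to 0.661%), while neurogenic cells, cones, starburst amacrine and horizontal cells overlap widely.

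Rods, the dim-light photoreceptors and the most numerous type, made up 19029 of the P2 cells and 19621 of the P5 cells. Their share was 31.9% in the lowest P2 library, 42.5% at the median and 55.8% in the highest. At P5 these values were 38.6%, 60.6% and 68.6%. Only 6 of the 10 P5 libraries lay above all P2 libraries, so the ages overlapped. The share rose 1.35-fold (log2 0.44, SE 0.17, edgeR adjusted p = 0.0371), and the exact permutation test gave 15.02 percentage points (adjusted p = 0.00643).

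This was the least stable of the 5 calls in edgeR. The highest 4 rod shares at P5 were the replicate 1 libraries, from 64.7 to 68.6%, and the other 6 libraries ranged from 38.6 to 62.4%. With only those other 6 at P5 the log2 difference was 0.24 (adjusted p = 0.205), and with only the replicate 1 libraries it was 0.69 (adjusted p = 0.0225). Among cells under 10 percent mitochondrial the replicate 1 libraries held 57.4 to 68.1% rods, and the log2 difference was 0.36 (edgeR adjusted p = 0.0609). Leaving out 1 library lifted the edgeR adjusted p above 0.05 in 14 of 20 cases, up to 0.0714, with log2 differences from 0.38 to 0.49. These libraries were P2 controls 1, 3 and 4, P5 controls 1 and 4, both P2 MEIS1, P2 MEIS2 2, both P2 combination, P5 MEIS1 1, P5 MEIS2 1 and both P5 combination libraries. The exact permutation test kept its call in all 20.

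Both rod calls were lost when only cells with at least 3 GFP UMIs were counted. The mean rod share was then 37.6 ± 6.61% at P2 and 46.7 ± 10.5% at P5 (SD, n = 10 libraries each), a log2 difference of 0.30 (edgeR adjusted p = 0.146) or 9.16 percentage points (exact permutation, adjusted p = 0.0569). The filter kept 43.5 to 95.4% of cells in the P2 libraries and 38.9 to 95.02% in the P5 libraries. Rods fell from 67.8 to 40.3% of cells in P5 MEIS2 library 1 and from 67.5 to 48.2% in P5 MEIS1 library 1, both with a median of 2 GFP UMIs. In P5 combination library 1, with a median of 25, the rod share was 64.7% before and 63.2% after. Depth differed too. Median UMIs per cell were 4394 in P5 MEIS2 library 1, 3275.5 in P5 MEIS1 library 1 and 9753 in P5 combination library 1. By type, the median over libraries was 4230 UMIs in rods at P2 and 5174 at P5, against 12286 and 22446 in progenitors. The parts of free GFP RNA and of UMIs per cell in these rod shares were not tested. The other 4 calls remained under this filter, with log2 differences of 5.80 for bipolar cells, -1.83 for amacrine cells, -0.99 for progenitors and 1.97 for Müller glia.

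Within rods, the authors' clusters shifted. Cluster 2, with the highest Nr2e3 (a rod-specific nuclear receptor) of the 3 rod clusters, held 18.5% of rods at P2 and 36.2% at P5. Per library its part of the rods was 8.68% at the lowest, 14.7% at the median and 25.3% at the highest at P2, and 24.4%, 38.2% and 45.2% at P5. Cluster 0, with the lowest level of this gene, held 49.3% of rods at P2 and 32.9% at P5. At P5 the 2 lowest cluster 2 values were those of combination library 1 (24.4%) and control library 3 (32.4%). Clusters are the authors' own, made on these cells, and so these are descriptions with no test.

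Amacrine cells, inhibitory interneurons of the inner retina, numbered 11315 at P2, 6115 of them in control library 1, and 2241 at P5. They were 9.53% of cells in the lowest P2 library, 19.3% at the median and 34.5% in the highest. At P5 the lowest value was 2.71%, the median 4.40% and the highest 13.8%. In 8 of 10 P5 libraries the share was below all P2 libraries. It fell 3.36-fold (log2 -1.75, SE 0.35, edgeR adjusted p = 0.000346), or by 14.9 percentage points (exact permutation, adjusted p = 0.00119).

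Both P5 libraries within the P2 range were replicate 1 libraries, control (13.8%, 866 of 6292 cells, 95% Wilson interval 12.9 to 14.6%) and MEIS1 (11.9%). Among cells under 10 percent mitochondrial they held 7.58% (240 of 3165 cells) and 6.30% (75 of 1191). All 10 P5 libraries were then below the lowest P2 library (9.42%), and the log2 difference was -2.08 (edgeR adjusted p = 3.33e-07). The filter kept 9633 of the 11315 amacrine cells at P2 and 1167 of the 2241 at P5. The 6 P5 libraries outside the replicate 1 set lay between 2.71 and 6.62%. Without the replicate 1 libraries the log2 difference was -2.40, and with them alone at P5 it was -1.17 (edgeR adjusted p = 0.0225). In control libraries alone, 4 against 4, the value of -1.67 did not pass (adjusted p = 0.117). Pooled over both ages and all libraries, Scrublet called 9.96% of amacrine cells doublets, the largest pooled value of the 9 types, against 1.35% of rods. By age it called 11.6% at P2 (1313 of 11315) and 1.65% at P5 (37 of 2241). Within P2, cells labelled bipolar (16.7%) and Müller glia (11.8%) had higher values, and within P5 so did neurogenic cells (2.38%), bipolar cells (2.37%) and progenitors (1.67%). In P2 control library 1, 5050 of the 6115 amacrine cells remained without called doublets. Leaving all called doublets out kept the call.

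Among the 5 amacrine clusters, cluster 13, with the highest Fgf15, a growth factor of progenitors, of the 5 (5.70 CPM at P2), held 16.6% of amacrine cells at P2 and 14.1% at P5, but 51.0% in P5 control library 3 and 42.8% in P5 combination library 1, against 3.89 to 19.4% in the other P5 libraries. These are values over all cells of the label, to which P2 control library 1 and P5 control library 1 gave the most. Cluster 6, the largest, held 36.3% at P2 and 35.9% at P5 in the same way, and by library 31.5% at the lowest, 36.3% at the median and 46.4% at the highest at P2, and 24.5%, 42.7% and 71.6% at P5. It had 843 CPM of Gad2, a GABA-making enzyme, and 28.0 CPM of Slc6a9, a glycine transporter, at P2, and 301 and 146 CPM at P5. Clusters 9 and 17, with the most Gad1 (another GABA-making enzyme), held 14.5% and 3.47% of all amacrine cells at P2, and 18.1% and 4.51% at P5. Their medians by library were 7.75% and 2.45% at P2, and 11.8% and 2.84% at P5, and the ages overlapped.

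The 3 rarest neuron types, all early-born in the retina, did not pass the test. Cones, the daylight photoreceptors, had shares of 0.328% at the lowest, 1.01% at the median and 1.98% at the highest at P2, and of 0.0699%, 0.411% and 1.75% at P5 (log2 -0.91, SE 0.57, edgeR adjusted p = 0.161). The spread among P5 libraries was wide, with 1.75% in MEIS1 library 1 and 1.64% in control library 1, and 0.0699 to 0.0889% in 4 libraries. Without the replicate 1 libraries the cone difference was -2.05 (adjusted p = 0.00112), and with them alone it was 0.06, so that the direction turned. Leaving out MEIS1 library 1 at P5 alone brought the adjusted p to 0.0221 (log2 -1.42). Cones also passed among cells under 10 percent mitochondrial (log2 -1.35, edgeR adjusted p = 0.00950). That filter kept 408 of 626 cones at P2 and 72 of 216 at P5. The median mitochondrial percent of cones was 7.14 at P2 (10 libraries) and 11.9 at P5 (6 libraries). The cut thus fell unevenly on cones by age, and its part in the difference was not tested.

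Horizontal cells, which connect photoreceptors laterally, numbered 41 at P2 and 14 at P5, and 5 of 10 P5 libraries held none. A count of 0 allows a share of up to 0.0524% in the largest of these libraries and 0.154% in the smallest. The log2 difference was -1.17 (SE 0.66, edgeR adjusted p = 0.139). Starburst amacrine cells, the cholinergic amacrine type, numbered 62 and 36 (log2 -0.49, SE 0.81, adjusted p = 0.550), and 26 of the 36 were in P5 control library 1. Of those 26 cells, 25 were at or over 10 percent mitochondrial. Among cells under it, starburst cells numbered 27 at P2 and 4 at P5 (log2 -1.40, edgeR adjusted p = 0.0666). Without the P5 replicate 1 libraries both passed (log2 -2.73, adjusted p = 0.00690 for horizontal and 0.0145 for starburst cells). With only those libraries at P5 the starburst difference was 0.65, the opposite direction, and the horizontal one was -0.20. Horizontal cells also passed without P5 control library 1 (log2 -1.91, adjusted p = 0.0230).

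Cells labelled progenitors numbered 8471 at P2 and 3347 at P5. Their share was 14.0% in the lowest P2 library, 18.8% at the median and 29.4% in the highest, against 3.01%, 9.67% and 20.7% at P5. It was below all P2 libraries in 8 of 10 P5 libraries, the exceptions being MEIS1 library 2 (20.7%) and control library 3 (17.2%). The share fell 2.18-fold (log2 -1.12, SE 0.33, edgeR adjusted p = 0.00712), or by 11.1 percentage points (exact permutation, adjusted p = 0.00268). In control libraries alone, 4 against 4, the log2 difference was -1.14 and did not pass (adjusted p = 0.159), and in the MEIS libraries alone it was -1.11 (adjusted p = 0.0592).

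The cells that kept the label differed in kind. Of the 3 progenitor clusters, clusters 12 and 16 carried the division genes, with Mki67 (a marker of cycling cells) at 352 and 430 CPM at P2, against 5.24 CPM in cluster 3. Together they held 35.4% of progenitors in the median P2 library and 5.52% in the median P5 library. The lowest and highest were 7.64 and 53.2% at P2, and 2.86 and 25.9% at P5. As a part of all cells they were 6.18% at the P2 median and 0.421% at the P5 median, 2960 cells against 482. Of the 482, 254 were in P5 control library 3 and 137 in P5 combination library 1, where they made up 25.9% and 24.95% of progenitors. The other 8 P5 libraries held 2.86 to 9.52%, and P2 control library 4 (7.71%) and P2 MEIS2 library 2 (7.64%) had values in that range. Cluster 3 held 74.1 to 97.1% of progenitors in P5 libraries and 46.8 to 92.4% in P2 libraries, and the label compares partly different clusters at the 2 ages.

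Several glial genes in the same label gave no overlap between ages. The share of all genes without overlap in these cells is not given here. Lack of overlap is therefore not read as particular to glial genes. Rlbp1, a retinoid-binding protein of Müller glia, was 117 CPM in the lowest, 319 in the median and 387 in the highest P2 library, and 840, 1424 and 1906 CPM at P5. Apoe, a lipid carrier made by glia, was 367, 927 and 2127 CPM at P2 and 5193, 7582 and 13675 CPM at P5. Slc1a3, the glial glutamate transporter, was 165, 332 and 446 CPM at P2 and 553, 1175 and 1495 CPM at P5. For these 3 genes and Aqp4, a water channel, 10 of 10 P5 libraries lay above all P2 libraries, combination library 1 and control library 3 included. Glul, glutamine synthetase of Müller glia, overlapped, at 182, 263 and 383 CPM at P2 and 343, 494 and 536 CPM at P5, with 9 of 10 P5 libraries above all P2 libraries. Sfrp2, a secreted Wnt modulator of progenitors, showed the reverse, 15.4 to 34.2 CPM at P2 and 2.71 to 13.9 CPM at P5, with 10 of 10 below. Ccnd1, a G1 cyclin, overlapped (median 517 CPM at P2 and 360 CPM at P5).

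**Figure D2:**
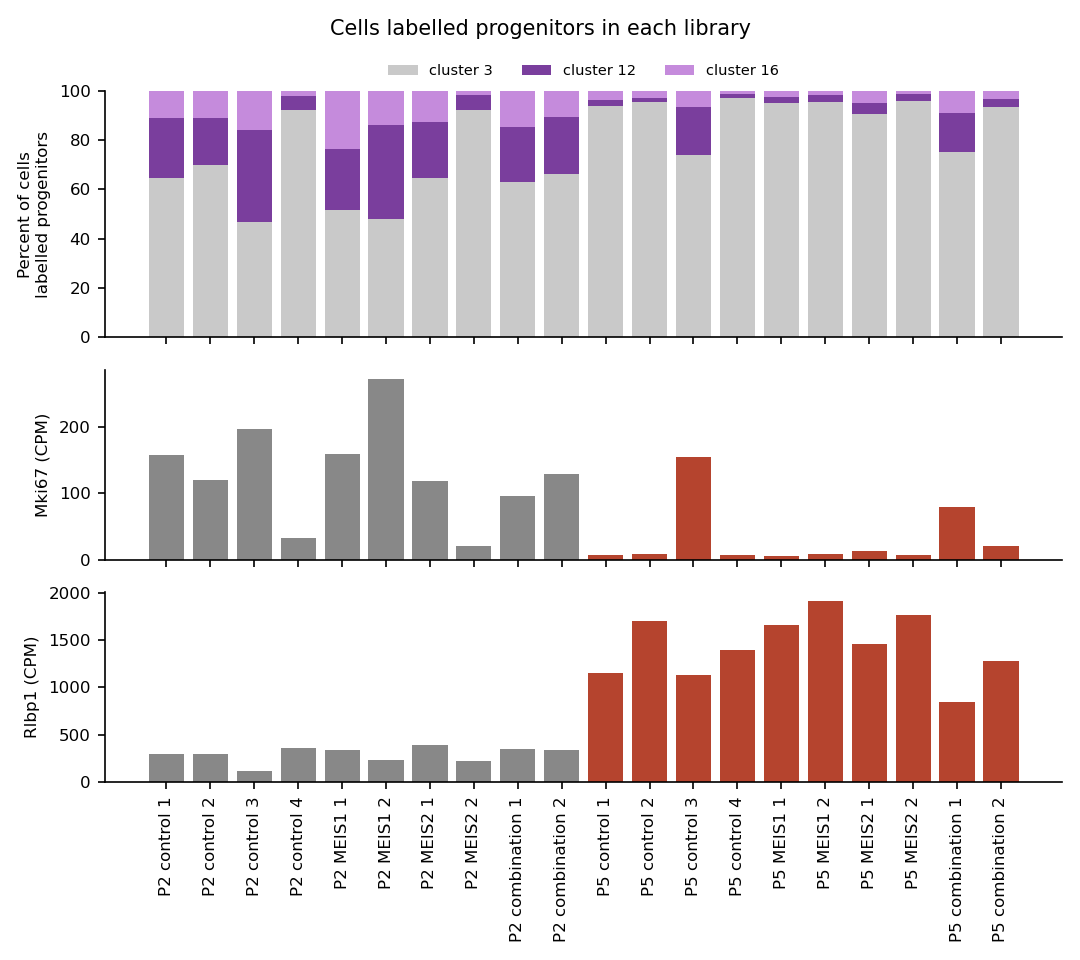
Cells labelled progenitors in each library: percent in clusters 3, 12 and 16 (top), and Mki67 (middle) and Rlbp1 (bottom) in CPM summed over those cells, grey for P2 and red for P5. Clusters 12 and 16 and Mki67 are low in 8 of 10 P5 libraries and not in P5 control 3 and combination 1, while Rlbp1 is higher in all 10 P5 libraries (840 to 1906 CPM) than in any P2 library (117 to 387 CPM).

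Cells labelled Müller glia, the radial glia of the retina, were few, 76 at P2 and 145 at P5. Their share was 0.127% at the P2 median, with a lowest value of 0 and a highest of 0.308%, and 0.370% at the P5 median, from 0.120 to 0.920%. In 6 of 10 P5 libraries it was above all P2 libraries. The share rose 2.95-fold (log2 1.56, SE 0.41, edgeR adjusted p = 0.00360), or by 0.281 percentage points (exact permutation, adjusted p = 0.00238). In control libraries alone the value of 1.24 did not pass (edgeR adjusted p = 0.159), nor did 1.22 with the replicate 1 libraries alone at P5 (adjusted p = 0.0526). The P2 library with none held 1762 cells, which allows a share of up to 0.170%.

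The markers place most glial RNA outside that label. At P5, 2 of 8 Müller glia markers (Clu, a secreted chaperone, and Aqp4) were highest in these cells, and the other 6 were highest in cells labelled progenitors. Rlbp1 was 471 CPM in P5 cells labelled Müller glia and 1389 CPM in P5 cells labelled progenitors, and Glul, glutamine synthetase, was 327 and 454 CPM. Merged as 1 type, progenitors and Müller glia fell in share (log2 -1.07, SE 0.33, edgeR adjusted p = 0.0109), an alternative chosen after these levels were seen.

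Neurogenic cells made up 9.51% of the lowest P2 library, 13.9% at the median and 18.7% in the highest, against 3.75%, 12.1% and 17.0% at P5. Their share did not pass the test (log2 -0.31, SE 0.29, edgeR adjusted p = 0.343; exact permutation adjusted p = 0.27). The 4 values below all P2 libraries were those of P5 MEIS1 1, control 1, MEIS2 1 and control 2, 3 of them replicate 1 libraries. With the replicate 1 libraries alone at P5 the difference was -1.10 (adjusted p = 0.0225), and without them 0.01, so that this share depends on which P5 libraries are used.

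Genes inside the label differed where its share did not pass. Atoh7 (mm10 chr10:63099651-63101279) was 97.0 CPM in the lowest, 146 in the median and 261 in the highest P2 library, and 0.70, 7.16 and 21.5 CPM at P5, with 10 of 10 below. Olig2, a basic helix-loop-helix factor of neurogenic progenitors, was below all P2 libraries in 8 of 10, and Neurog2, a proneural factor, in 0 of 10. Cluster 4, the larger of the 2 neurogenic clusters, held 75.3% of these cells at P2 and 60.7% at P5. Cluster 11 held 24.7% and 39.3%, and had 901 CPM of Rlbp1 at P5 against 49.1 CPM at P2. These levels are given as descriptions, with no test, since the labels and clusters are the authors' and the genes used to make them are not given in the sources used here.

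Ratios of types do not move when a further type expands. Each was computed per library from cell numbers with 0.5 added to both, and all 10 ratios (100%) passed the exact permutation test adjusted over the 10. The smallest p the 15120 arrangements can give is 0.000132, which adjusts to 0.000220.

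The rod to amacrine ratio was 1.13 in the lowest P2 library, 2.20 at the median and 4.54 in the highest. It was 4.98 at the lowest, 12.6 at the median and 17.3 at the highest at P5. All 10 P5 libraries lay above all P2 libraries, narrowly so for control library 1 (4.98) beside P2 control library 4 (4.54). The mean log2 ratio was 1.07 ± 0.66 at P2 and 3.39 ± 0.62 at P5 (SD, n = 10 libraries each), a 4.97-fold difference (adjusted p = 0.000220, exact permutation, higher in 10 of 10). It passed in control libraries alone (log2 2.16, adjusted p = 0.0476) and in MEIS libraries alone (log2 2.41, adjusted p = 0.0154).

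The bipolar to neurogenic ratio was 0.0143, 0.0243 and 0.0453 at P2 (lowest, median, highest) and 0.0698, 1.48 and 2.64 at P5. It differed 45.8-fold (log2 5.52, adjusted p = 0.000220, exact permutation). P5 combination library 1 had the lowest P5 value, 0.0698, and the next was 0.688 in combination library 2. Without combination library 1 the log2 difference was 5.98. In 8 of 10 P5 libraries bipolar cells outnumbered neurogenic cells, and in none of the P2 libraries.

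Bipolar to amacrine had the widest ratio difference, 124-fold (log2 6.95), from a P2 median of 0.0216 to a P5 median of 2.55. Rod to bipolar fell from a median of 157 to 4.40 (log2 -4.64), and 9 of 10 P5 libraries were below all P2 libraries. The exception was combination library 1, at 54.5 rods for 1 bipolar cell. Neurogenic to progenitor rose 1.80-fold (log2 0.85), with medians of 0.670 and 1.38, and 6 of 10 P5 libraries were above all P2 libraries. Müller glia to progenitor rose 6.97-fold (log2 2.80), with 9 of 10 above. It rests on few P2 cells, 76 labelled Müller glia, 40 of them in control library 1. In P2 combination library 2, which had none, the value of 0.00156 comes from the added 0.5. Most Müller glia markers at P5 were highest in cells labelled progenitors, the other side of this ratio. These 4 ratios, rod to amacrine and bipolar to neurogenic all had an adjusted p of 0.000220 and passed in control and in MEIS libraries alone.

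The calls on the other 4 ratios depended more on which libraries were used. Rod to cone rose 3.58-fold (log2 1.84, adjusted p = 0.00976, exact permutation) and all neurons to progenitors plus neurogenic cells 2.23-fold (log2 1.16, adjusted p = 0.00976), each with 5 of 10 P5 libraries above all P2 libraries. With the replicate 1 libraries alone at P5, rod to cone was 0.89 (adjusted p = 0.321). Without them, neurons to progenitors plus neurogenic cells was 0.57 (adjusted p = 0.0729). Rod to neurogenic (log2 0.88, adjusted p = 0.0366) and amacrine to neurogenic (log2 -1.44, adjusted p = 0.0366) each lost the call in 13 of 20 cases in which 1 library was left out. Amacrine to neurogenic was -0.03 (adjusted p = 0.985) with the replicate 1 libraries alone at P5, and rod to neurogenic 0.23 (adjusted p = 0.340) without them. At 3 or more GFP UMIs, rod to cone (0.96, adjusted p = 0.138) and rod to neurogenic (0.48, adjusted p = 0.0776) lost the call. None of these 4 passed in control libraries or in MEIS libraries alone.

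**Figure D3:**
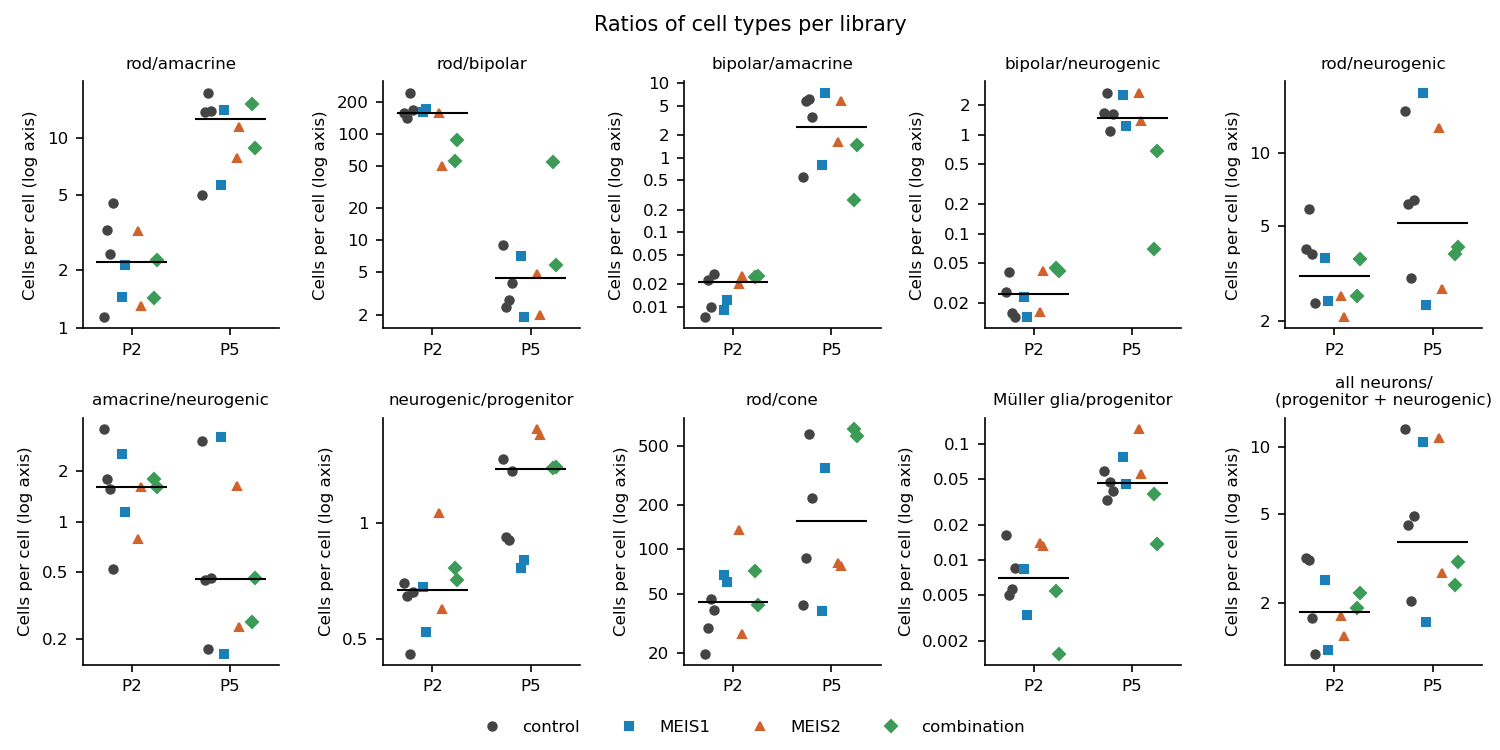
Ratios of cell numbers per library (0.5 added to each number) on log axes, by age; shape and colour give the arm and the black line is the median of 10 libraries. Rod to amacrine (1.13 to 4.54 at P2, 4.98 to 17.3 at P5) and bipolar to neurogenic (0.0143 to 0.0453 at P2, 0.0698 to 2.64 at P5) do not overlap, and P5 combination library 1 lies within the P2 range for rod to bipolar (54.5) and just above it for bipolar to neurogenic (0.0698).

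With the 6 neuron types as the whole, 2 of 6 shares (33.3%) passed edgeR's test. Amacrine cells were 30.6% of neurons in the median P2 library and 5.78% in the median P5 library, and 10 of 10 P5 libraries were below all P2 libraries (log2 -2.07, SE 0.28, adjusted p = 3.91e-06). Bipolar cells were 0.445% and 17.1% of neurons, with 10 of 10 above (log2 5.09, SE 0.50, adjusted p = 8.12e-08). Rods were 67.3% of neurons in the median P2 library and 74.2% in the median P5 library, with overlapping ranges of 51.4 to 79.8% and 62.4 to 92.0% (log2 0.15, SE 0.12, adjusted p = 0.256). The highest value, 92.0%, was that of P5 combination library 1.

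Cones (log2 -1.27, SE 0.52) and horizontal cells (log2 -1.42, SE 0.62) missed the threshold among neurons at an edgeR adjusted p of 0.0536 each, and starburst amacrine cells (log2 -0.78, SE 0.79) at 0.335. Without P5 control library 1 all 3 passed and 5 of 6 types were called. Without P2 MEIS1 library 2, or without P5 MEIS1 library 1, cones and horizontal cells passed. Cones also passed without P2 MEIS1 library 1 or P2 MEIS2 library 1. Starburst cells passed among cells under 10 percent mitochondrial (log2 -1.57, edgeR adjusted p = 0.0386). That cut kept 27 of 62 starburst cells at P2 and 4 of 36 at P5, and its part in the difference was not tested.

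The age difference was next set beside the construct. Within arms, the log2 difference of the bipolar share was 5.89 in control (SE 0.67), 6.05 in MEIS1 (SE 0.98), 5.37 in MEIS2 (SE 0.95) and 3.21 in the combination (SE 0.85). The mean P5 share was 15.7 ± 6.30% in control (SD, n = 4 libraries), 14.9 ± 7.61% in MEIS1, 18.4 ± 6.20% in MEIS2 and 5.52 ± 6.14% in the combination (SD, n = 2 libraries each). For amacrine cells the 4 within-arm values lay between -2.10 and -1.65, and for rods between 0.35 and 0.55.

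No age by arm interaction passed for any of the 9 types (0 of 9, 0.0%, edgeR, 3 terms). The lowest was bipolar cells, at an unadjusted p of 0.0753 (adjusted p = 0.678). Neither did the mean age difference of the 3 MEIS arms less that of control (0 of 9, 0.0%, edgeR). There bipolar cells gave a log2 value of -1.01 (SE 0.74, unadjusted p = 0.189, edgeR). None of the 9 was at an unadjusted p under 0.05 in either test, and DESeq2 called 0 of 9 for the 3 terms. No MEIS arm was set against control in a test of its own. Leaving out P5 combination library 2 brought the bipolar interaction to an adjusted p of 0.0170, where P5 combination rested on library 1 alone, assumed to vary as the other groups do. Leaving out library 1 in its place gave an unadjusted p of 0.229. With 2 libraries a MEIS arm, the within-arm SEs were 0.45 to 1.06 for rods, amacrine cells, progenitors, neurogenic cells, bipolar cells and Müller glia, and these p-values do not show that the arms act alike.

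**Figure D4:**
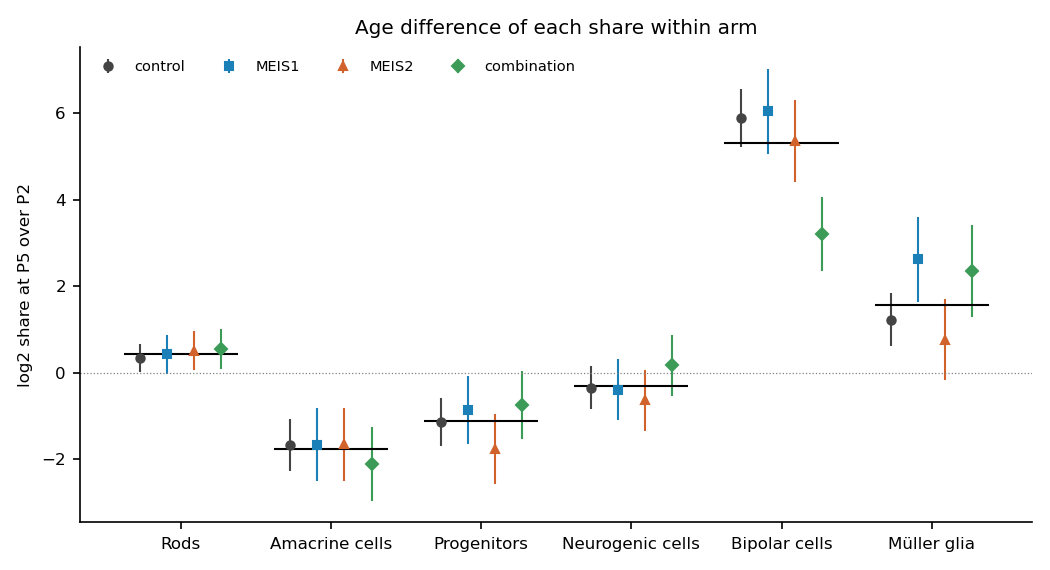
Log2 of the share at P5 over P2 within each arm, with its SE from edgeR (bars), for 6 types; black lines mark the value over all arms. The combination has the lowest bipolar value (3.21, against 5.37 to 6.05 in the other arms), and its SE is 0.85.

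Marker genes summed over all cells of a library read composition without the labels. In these sums, fewer cells of a type and less RNA per cell cannot be told apart. Of 17556 genes tested in edgeR, 4530 (25.8%) passed at the same threshold, 2490 higher at P5 (14.2%) and 2040 lower (11.6%), and the median log2 difference over all genes was 0.00.

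Rod and bipolar lists moved up as a whole. All 8 rod markers rose, with a list median of 2.77 on the log2 scale. Nr2e3 rose by 1.47 (SE 0.17), with 10 of 10 P5 libraries above all P2 libraries. Nrl, the transcription factor that directs rod fate, rose by 0.71 (SE 0.18, adjusted p = 0.00700) with 3 of 10 above.

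All 9 bipolar markers rose. Grm6 had 0 UMIs in all 10 P2 libraries and 28345 at P5, and Vsx1 (mm10 chr2:150680702-150689360) 0 and 7936. Each was detected in 9 of 10 P5 libraries, and in combination library 1 both were at 0 of 51751194 UMIs. Trpm1 was 0.391 CPM at the P2 median and 30.9 CPM at the P5 median, and rose by 5.94 (SE 0.59), with 10 of 10 above. Its lowest P5 value was 1.13 CPM, again in combination library 1.

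Amacrine, neurogenic and progenitor lists moved down in part. Of 7 amacrine markers 5 fell and 2 did not pass (list median -2.15). Tfap2b, an amacrine AP-2 factor, fell by 2.24 on the log2 scale (SE 0.40, edgeR adjusted p = 0.000436), from 105 to 22.7 CPM at the median. Gad1 (log2 0.21, SE 0.80) and Slc6a9 (log2 0.21, SE 0.24) did not pass, and Gad1 turned negative without the P5 replicate 1 libraries (-1.18). Slc6a9 passed without P2 MEIS2 library 2, the shallowest (log2 0.46, edgeR adjusted p = 0.0393). Within amacrine-labelled cells, pooled over libraries and with no test, 5 of the 7 markers were lower at P5 and 2 were higher. The lower ones were Gad2 (637 CPM at P2 and 237 CPM at P5), Tfap2b (781 and 360 CPM), Tfap2a (379 and 95.4 CPM), Pax6 (944 and 716 CPM) and Slc32a1 (89.6 and 73.6 CPM). Slc6a9 was 22.6 CPM at P2 and 86.9 CPM at P5, and Gad1 29.3 and 83.6 CPM. By library the ages overlapped for both, with Slc6a9 above all P2 libraries in 1 of 10 P5 libraries and Gad1 in 4 of 10. Tfap2b overlapped too, below all P2 libraries in 1 of 10.

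Of 8 neurogenic markers 6 fell and 2 did not pass (median -1.40). Atoh7 fell by 4.39 (SE 0.42, edgeR adjusted p = 6.82e-07), from 44.5 to 1.34 CPM at the median, and Neurog2 by 1.68 (SE 0.31). Their fall went with a neurogenic share that did not pass its own test. Of 8 progenitor markers 4 fell and 4 did not pass (median -1.01). Fgf15 fell by 2.82 (SE 0.41), Top2a, a topoisomerase of dividing cells, by 3.37 (SE 0.73), Mki67 by 2.47 (SE 0.66) and Sfrp2 by 1.39 (SE 0.26). Ccnd1 did not pass (log2 -0.44, SE 0.24, adjusted p = 0.200), but did without P5 control library 3 (log2 -0.67, edgeR adjusted p = 0.0249).

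Müller glia markers rose in 7 of 8 (median 2.07), among them Rlbp1 (log2 1.94, SE 0.26, edgeR adjusted p = 2.51e-05), from 89.96 to 332 CPM at the median and above all P2 libraries in 10 of 10. Aqp4 rose by 2.26 (SE 0.32), and Glul did not pass (log2 0.23, SE 0.16). Glial genes and the progenitor label thus moved in opposite directions.

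Early-born types gave mixed lists. Of 6 cone markers tested 2 rose, Gnat2, the cone transducin (log2 0.56, SE 0.17, adjusted p = 0.0218, edgeR), and Thrb, a thyroid hormone receptor (log2 1.41, SE 0.34), and 4 did not pass. Among these, Opn1sw, the short-wave cone opsin, was at -0.79 (SE 0.46) and Arr3, cone arrestin, at 1.23 (SE 0.59). Gnat2 lost its call without P5 control library 1, P2 MEIS1 library 2 or P5 MEIS1 library 2, with adjusted p up to 0.0574. Opn1sw passed without P5 MEIS1 library 1 (log2 -1.20, edgeR adjusted p = 0.0460) and without the P5 replicate 1 libraries (log2 -2.16, edgeR adjusted p = 5.54e-05). Without the latter Arr3 was -0.29, and with them alone at P5 Opn1sw was 0.21 and Arr3 2.39.

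Of 5 horizontal markers 2 fell, Onecut1 (log2 -2.32, SE 0.40, edgeR adjusted p = 0.000261) and Onecut2, both transcription factors of early-born neurons. Prox1, also found in other interneurons, rose (log2 0.79, SE 0.16). Lhx1, a horizontal cell factor (log2 -0.40, SE 0.39), and Calb1, a calcium-binding protein (log2 0.77, SE 0.57), did not pass. Of 3 starburst markers tested, Megf10, a cell surface receptor of starburst cells, rose (log2 1.14, SE 0.17). Chat, which makes acetylcholine (log2 1.03, SE 0.91), and its transporter Slc18a3 (log2 0.79, SE 0.96), whose gene lies inside the Chat gene, did not pass, and both were negative without P5 control library 1. Slc5a7, the choline transporter, was too low to be tested.

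**Figure D5:**
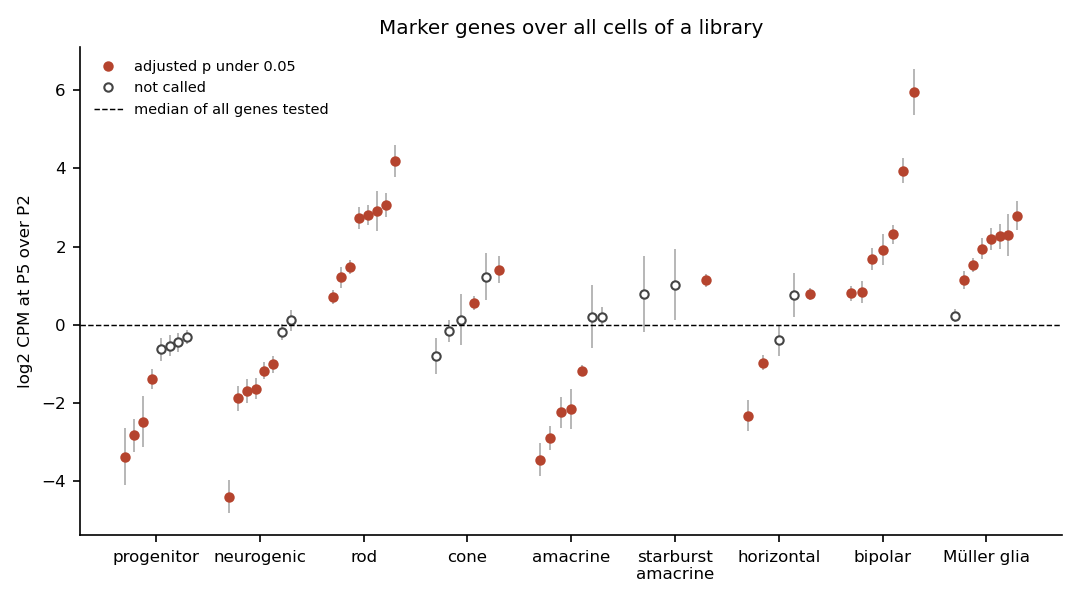
Log2 difference of marker genes over all cells of a library, P5 over P2, with SE (bars), for the tested genes of 9 lists; red points passed an edgeR adjusted p of 0.05, open points did not, and the dashed line is the median of all genes. Grm6 and Vsx1 are left out because all P2 libraries were at 0. All rod and bipolar markers shown lie above the line, and the called genes of the amacrine, neurogenic and progenitor lists below it.

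Markers of cells outside the 9 labels were detected and partly moved with age. The summed level of 6 microglia markers was 4.98 to 27.8 CPM at P2 and 9.08 to 84.8 CPM at P5, and 4 of 6 rose. For 6 ganglion cell markers it was 6.93 to 12.4 CPM and 3.81 to 11.2 CPM, and 0 of 4 tested passed (edgeR; 0 were at an unadjusted p under 0.05). Endothelial markers ranged from 71.5 to 217 CPM at P2 and from 87.8 to 315 CPM at P5, with 1 of 4 tested lower, Cldn5. Pericyte, pigment epithelium, astrocyte and lens markers were at or below 21.5 CPM in every library, and 4 of 9 tested rose. Of the erythroid markers 2 were in the table, at 0 in all P5 libraries and at most 2.40 CPM at P2. Their part in the shares was not tested.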

How the data were processed

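Single-cell RNA libraries (10x Genomics 3′ chemistry, per the labels' protocols) went through Cell Ranger on mm10 with an added GFP locus and Seurat version 5, per the submitters' processing notes; filters on cells are not given in the sources used here. The deposited table holds raw UMI counts of 23260 genes in 79009 cells, and in all cells the sum matched the UMI total deposited by the authors. The deposited cell description gives genes per cell as a count, the mitochondrial percent, the authors' cell types and clusters, which are other, categorical values. Cluster numbers run to 21 with 18 present, and numbers 5, 10, 14 and 20 are absent. Whether cells of these clusters were left out is not given in the sources used here. All shares are therefore shares of the deposited cells.

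Cells per type and library were tested with edgeR 4.0.16 (R 4.3.3; quasi-likelihood, total cells as offset, arm as block) and with two-sided exact permutation within arm. UMI counts summed per library were tested in edgeR after filterByExpr and TMM. Benjamini-Hochberg adjusted p under 0.05 was called. Named genes are the first 3 of each of 9 marker lists, some of which are not reported here; the others named were chosen after their values were seen. Members and lists were chosen with earlier results of these data known. Positions are GENCODE vM21. Alternatives used DESeq2 1.42.0, other normalizations, filters, pseudocounts and libraries, and Scrublet (scanpy 1.11.5). Intervals (95% Wilson) and limits of 3 counts cover counting error only. Scripts were tested on simulated data.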

Additional observations from a re-analysis of the deposited data

Results flagged for a closer look

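Each share and ratio was searched for a library far from the rest of its group, in 76 groups of libraries, and chance alone would pick out about 1 in 20 groups. The search picked out 5 values in 2 libraries, where the gap to the nearest library, divided by the whole range, passed Dixon's limit. For ratios the gap and range were taken on the log2 scale, while the ratios below are printed unlogged.

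P5 control library 1 had an amacrine share of 13.8%, while the nearest of the other P5 controls had 4.49% (gap 0.839 of the range). Its starburst amacrine share of 0.413%, 26 cells, stood apart both from the P5 controls (nearest 0.0253%, gap 0.939) and from all 10 P5 libraries (nearest 0.199%, gap 0.518). P5 combination library 1 had 54.5 rods for 1 bipolar cell, against 9.05 in the nearest P5 library (gap 0.535), and a bipolar to neurogenic ratio of 0.0698, against 0.688 (gap 0.630). Both are replicate 1 libraries with a high median mitochondrial percent (9.95 and 8.27). Among cells under 10 percent mitochondrial, P5 control library 1 held 7.58% amacrine cells and 1 starburst cell (0.0316%), while P5 combination library 1 had 46.5 rods for 1 bipolar cell and a bipolar to neurogenic ratio of 0.0613.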

How the results depend on the processing

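Bipolar and amacrine shares kept their direction under all settings run, and edgeR called the bipolar share in each. Leaving out 1 library at a time, the number of types called was 4 to 5, the amacrine log2 difference -2.03 to -1.61, the progenitor one -1.33 to -0.99 and the bipolar one 5.18 to 5.58. The rod difference was 0.38 to 0.49, with the call lost in 14 of 20 cases (libraries named in the report). Among neurons 2 to 5 types were called. The age by arm count was 0 to 1, and 1 only without P5 combination library 2. Gad1 was -0.49 to 0.51 (negative without P5 control 1, P2 MEIS2 1, P2 MEIS2 2, P5 MEIS1 1 or P5 MEIS2 1), Chat -0.53 to 1.53 and Slc18a3 -0.47 to 1.36 (negative without P5 control 1).

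With control libraries only, 1 type (bipolar) passed in edgeR and 0 by exact permutation (1 at an unadjusted p under 0.05, and the smallest p that 4 against 4 allows is 0.0286), 6 of 10 ratios and 798 genes passed, and the values were 0.35 for rods, -1.67 for amacrine cells, -1.14 for progenitors and -0.23 for Gad1. With MEIS libraries only, 3 types, 6 ratios and 2275 genes passed, with rods at 0.50 and progenitors at -1.11, neither called. Fewer libraries enter these fits. Rods also missed the threshold with TMM factors (0.24), without the P5 replicate 1 libraries (0.24), under 10 percent mitochondrial (0.36) and at 3 or more GFP UMIs (0.30); the cause was not tested. Among neurons, 4 types passed with DESeq2, with TMM factors, with single constructs as 1 arm and under 10 percent mitochondrial, and 5 without the P5 replicate 1 libraries. There rods were -0.023 with TMM factors and -0.0032 at 3 or more GFP UMIs, where starburst cells were 0.067 among neurons, 0.33 among all cells and 0.01003 percentage points higher.

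Without the P5 replicate 1 libraries, neurogenic cells were 0.013 (0.200 percentage points), Arr3 -0.29, Gad1 -1.18, Chat -1.58 and Slc18a3 -1.34. With only those libraries at P5, an alternative chosen after seeing the data, 3 types passed by exact permutation and 2603 genes in edgeR, cones were 0.056 (0.166 points), starburst cells 0.65 (0.0706 points) and 0.28 among neurons, Opn1sw 0.21 and Lhx1 0.12. With median log2 UMIs as a covariate Gad1 was -0.083.

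Whether replicate numbers pair the libraries of the 2 ages was not settled. Same-numbered libraries correlated at 0.47, 0.15, 0.32 and 0.00 in control, 0.44 in MEIS1, -0.24 in MEIS2 and -0.00 in the combination. Differently numbered libraries were not compared. With 2 libraries a group, both numbers of a MEIS arm must give the same value. With the replicate block 6 types were called, cones added (-1.35), 3 types among neurons, 10 ratios and 4230 genes, and Gad1 was -0.20. Cell number limits the types under 100 cells, and a count of 0 allows up to 0.170% of a library.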
